A study of Mus musculus with 19 samples.

Results

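The 9 genes that encode the sterol regulatory element-binding proteins (SREBPs) and the machinery that processes them were examined in mouse liver with and without hepatocyte Raly. They were chosen by symbol, and all 9 were found among the 24054 genes of the deposited table. They are Srebf1 and Srebf2, which encode SREBP1 and SREBP2, the escort Scap, the retention factors Insig1 and Insig2, the proteases Mbtps1 and Mbtps2, and the ubiquitin ligase genes Rnf5 and Rnf139. RNA-seq was available for 3 L-RalyKO and 3 control livers of the 19 samples of the series, and the 8 ATAC-seq and 5 ChIP-seq samples were not analysed here. All 6 mice were chow-fed, on a C57BL/6 background and, per the methods, homozygous for a floxed Raly allele. L-RalyKO mice received the adeno-associated virus AAV8.TBG.Cre and controls AAV8.TBG.GFP, about a month before the livers were taken. The TBG promoter drives Cre in hepatocytes, so other liver cells keep Raly. The labels give the genotypes as RALY-KO and wild type and state no age. The methods describe mice as male unless otherwise specified. The question was how loss of the RNA-binding protein RALY changes the genes that control hepatic sterol and fatty acid synthesis.

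SREBPs are made as precursors in the membrane of the endoplasmic reticulum (ER). When ER sterols are low, SCAP carries them in COPII vesicles to the Golgi, where site-1 protease (Mbtps1) and site-2 protease (Mbtps2) release the part that enters the nucleus. When sterols are high, INSIG1 or INSIG2 holds SCAP and its cargo in the ER. In liver SREBP2 mainly drives cholesterol synthesis and SREBP1c mainly fatty acid synthesis. Insig1 is itself an SREBP target, whereas the liver-enriched Insig2a transcript is known to be lowered by insulin. RNF139 (TRC8) and RNF5 are ER ubiquitin ligases. RNF139 can bind SREBP precursors and INSIGs, and RNF5 has been linked to SCAP.

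Sequence upstream of the start sites is shown for the 3 genes that changed, described below, and for Srebf2, because the study asks about RALY together with NFY, a factor that binds CCAAT boxes. Each run is the 250 bases before a start site, read 5′ to 3′ on the strand of the gene, from RefSeq's promoter table for GRCm38.p6. Every printed run matched NCBIM37 (mm9) exactly and once, and the coordinates are those of NCBIM37. Capitals mark CCAAT (or ATTGG on the other strand) and the core of the sterol regulatory element, TCACNCC, where N is any base.
Srebf2 (chr15:81977449-81977698, + strand): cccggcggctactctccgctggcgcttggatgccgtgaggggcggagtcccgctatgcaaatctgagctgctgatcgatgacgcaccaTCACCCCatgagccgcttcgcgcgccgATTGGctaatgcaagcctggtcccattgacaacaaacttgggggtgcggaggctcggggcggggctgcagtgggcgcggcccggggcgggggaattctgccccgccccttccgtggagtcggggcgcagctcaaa
Srebf1, downstream start (chr11:60023974-60024223, - strand): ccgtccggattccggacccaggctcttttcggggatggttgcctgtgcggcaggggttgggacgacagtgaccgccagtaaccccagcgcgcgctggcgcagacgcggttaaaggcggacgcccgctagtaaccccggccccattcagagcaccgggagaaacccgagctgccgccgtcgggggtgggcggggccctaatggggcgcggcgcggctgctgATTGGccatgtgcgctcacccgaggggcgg
Insig1 (chr5:28397702-28397951, + strand): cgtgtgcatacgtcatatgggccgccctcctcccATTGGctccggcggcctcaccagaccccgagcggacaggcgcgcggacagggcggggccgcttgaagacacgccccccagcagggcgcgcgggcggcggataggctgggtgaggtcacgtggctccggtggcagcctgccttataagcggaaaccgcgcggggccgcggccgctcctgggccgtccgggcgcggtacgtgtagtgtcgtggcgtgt
Insig2, upstream start (chr1:123229167-123229416, - strand): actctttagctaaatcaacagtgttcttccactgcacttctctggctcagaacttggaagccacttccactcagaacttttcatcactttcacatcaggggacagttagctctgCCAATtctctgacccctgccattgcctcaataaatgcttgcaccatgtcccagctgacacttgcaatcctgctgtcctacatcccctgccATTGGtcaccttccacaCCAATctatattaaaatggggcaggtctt

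The Srebf2 window held the element core with its first base at -162 and a CCAAT box at -135, counted from the start site. The Insig1 window held 1 CCAAT box, at -216. The window of the downstream Srebf1 start held 1 CCAAT box, at -30, and no exact match to TCACNCC. Near its end that window has tcacccg, which differs from TCACNCC only in the last base and was not marked. Only exact matches were counted, so elements that vary from the pattern are missed. The upstream Insig2 start had 3 CCAAT boxes, at -136, -46 and -29. On both strands, CCAAT occurred in 33.8% of 32851 promoter windows of the same length, the TCACNCC core in 13.4% and the GC box GGGCGG in 32.7%. GC boxes numbered 4 before Srebf2, 3 before Insig1, 2 before the downstream Srebf1 start and none before the upstream Insig2 start. Insig2 has other start sites at 123224601 and 123224255, whose windows held no CCAAT box and 1 TCACNCC core each. Of the remaining Srebf1 starts, the window before 60036083 held a CCAAT box at -166, and the window before 60034129 held none. Windows of Scap, Mbtps1 and Mbtps2 contained neither CCAAT nor the TCACNCC core. The table gave windows for 7 of the 9 genes, and Rnf5 and Rnf139 are named only. The reads were counted per gene, so the start sites cannot be told apart in these values.

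Raly served as the check of the labels. Its values were 6.34, 6.61 and 7.39 in the L-RalyKO mice and 50.1, 48.6 and 46.8 in the controls, a log2 fold change of -2.67 (SE 0.069, limma, adjusted p = 6.92e-07). Values here and below are normalised reads, that is reads scaled to a common library size and not divided by gene length. Recovered reads per mouse lay between 28302983 and 38052705. In bulk liver, fewer cells of a type and less RNA per cell cannot be told apart. All 8 hepatocyte markers, such as Alb and Apob, were detected in every mouse. Their summed value was 116300 to 117200 in L-RalyKO and 103700 to 113200 in control liver, and none was called (limma, 4 at unadjusted p under 0.05; edgeR's quasi-likelihood test called 0 and DESeq2 3). All 8 had a log2 fold change above 0 (7 of 8 with total count scaling), with a median of 0.17, where 51.2% of all genes were above 0. Of the 8, 3 had groups that did not overlap, and 28.1% of all genes had such groups. An unadjusted p under 0.05 was seen in 22.7% of all genes. Limma called 1 of the 8 higher without control mouse 3. Of 4 tested adipocyte-list genes, Car3 and Cfd were lower (limma, adjusted p = 0.0189 and 0.0318). These are 50% of the 4, where 3.19% of all genes were called lower. All 4 had a log2 fold change below 0, with a median of -1.09. The summed value of the list, nearly all of it Car3, was 1677 to 2097 against 2518 to 3788. Of the 4, edgeR's quasi-likelihood test called 1, and limma called 1 without L-RalyKO mouse 1 or 2 or control mouse 1, and 0 without L-RalyKO mouse 3 (3 at unadjusted p under 0.05). The defining adipocyte markers Adipoq, Lep, Retn and Plin1 had values of at most 0.209 in any mouse. Lep (0.209) and Retn (0.149) had reads only in control mouse 1, where Adipoq was also highest (0.119), while Plin1 was highest in control mouse 2 (0.0701). In control mouse 1 Cfd was 12.6, against 2.74 and 3.46 in the other controls and 0.132 to 1.10 in L-RalyKO mice. Cidec, not called by limma, was 38.8 in that mouse, against 7.54 and 14.1 in the other controls and 4.71 to 6.30 in L-RalyKO mice. No gene of the Kupffer cell, endothelial, stellate, cholangiocyte, lymphocyte or erythroid lists was called (limma and edgeR's quasi-likelihood test; 2 genes at unadjusted p under 0.05 in limma, and DESeq2 called 1). With the replicate block, and without control mouse 1, limma called 1 cholangiocyte gene higher. The part of cell composition in the results below was not tested.

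Of the 9 genes, Srebf1 and Insig2 were lower and Insig1 was higher in L-RalyKO liver, and the other 6 did not pass the test. L-RalyKO liver held 64.4% of the control level of Srebf1, 66.1% of that of Insig2 and 147.5% of that of Insig1. The 3 genes called are 33.3% of the 9, against 6.55% of all 11580 genes tested (758 genes, limma on log2(value + 1) with Benjamini-Hochberg adjustment, adjusted p under 0.05). By direction, 3.19% of all genes were called lower and 3.36% higher. In the same 3 genes, and in no other of the 9, the 2 groups of mice did not overlap. Among all genes tested, 28.1% had groups that did not overlap. At unadjusted p under 0.05 the same 3 genes passed, where 22.7% of all genes did, and edgeR's quasi-likelihood test, run on recovered reads, also called these 3 (6.76% of all genes called).

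**Figure D1:**
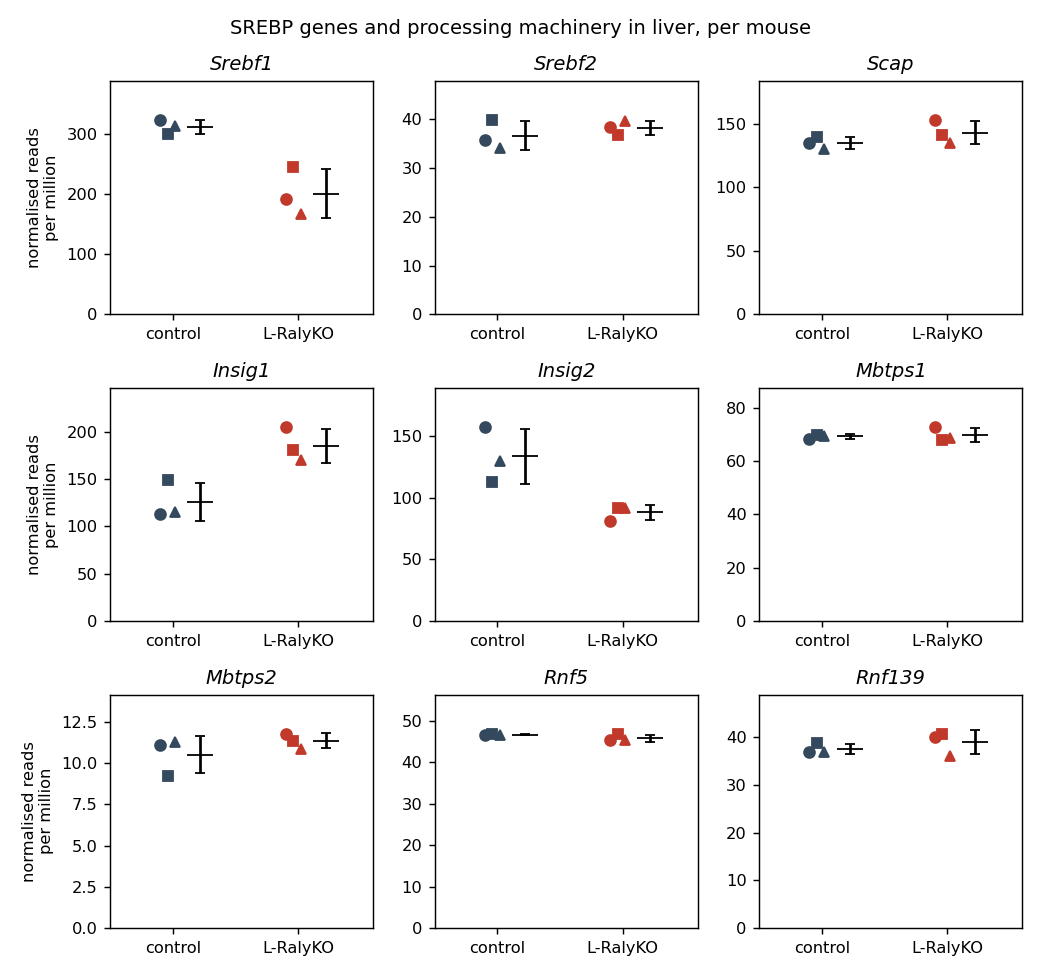
Normalised reads in each mouse for the 9 genes, with control mice in dark blue and L-RalyKO mice in red. Circles, squares and triangles are mice 1, 2 and 3 of a group, the horizontal bar is the mean and the error bar the SD (n = 3). Groups are separate in Srebf1, Insig1 and Insig2 and overlap in the other 6, and each vertical axis starts at 0.

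Srebf1 (ENSMUSG00000020538.8, chr11:60012591-60036083, - strand) gives rise to SREBP1a and SREBP1c. Its values were 190.7, 244.6 and 166.2 in L-RalyKO mice 1 to 3 and 322.8, 298.9 and 312.4 in control mice 1 to 3. The groups were separate, and L-RalyKO mouse 2 came nearest to the controls. The means were 200.5 ± 40.1 and 311.4 ± 12.0 (SD, n = 3 each), so the L-RalyKO mice spread more widely (coefficient of variation 19.99% against 3.84%). The log2 fold change was -0.65 (SE 0.12, 95% interval -0.92 to -0.38, limma, adjusted p = 0.0173). With 3 mice against 3, the two-sided exact permutation test gave p = 0.1, which is the smallest p this design allows. The gene has 14 annotated transcripts, and the isoforms of SREBP1 were not separated by the counting.

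Insig1 (ENSMUSG00000045294.9, chr5:28397952-28405201, + strand) rose. Its values were 205.2, 180.4 and 170.3 in L-RalyKO mice and 113.2, 148.8 and 114.8 in controls. All L-RalyKO mice lay above all controls, with control mouse 2 closest to them. The means were 185.3 ± 18.0 and 125.6 ± 20.1 (SD, n = 3 each). The log2 fold change was 0.56 (SE 0.11, 95% interval 0.31 to 0.82, limma, adjusted p = 0.0211; exact permutation p = 0.1). A single transcript is annotated.

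Insig2 (ENSMUSG00000003721.8, chr1:123200930-123229166, - strand) fell. Its values were 81.21, 91.76 and 91.83 in L-RalyKO mice and 157.6, 112.98 and 129.97 in controls. Again no L-RalyKO mouse reached the control range, and control mouse 2 was the lowest control. The means were 88.3 ± 6.11 and 133.5 ± 22.5 (SD, n = 3 each). The log2 fold change was -0.58 (SE 0.11, 95% interval -0.83 to -0.33, limma, adjusted p = 0.0190; exact permutation p = 0.1). Here the controls spread more than the L-RalyKO mice (16.9% against 6.93%). The annotation holds 13 transcripts of Insig2 from several starts, and the liver-enriched Insig2a transcript was not resolved.

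**Figure D2:**
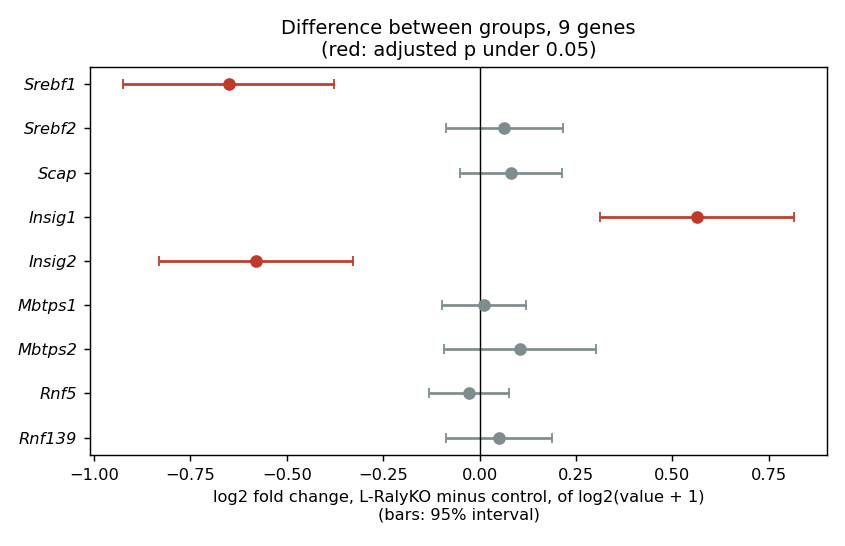
Log2 fold change of each of the 9 genes, L-RalyKO minus control, with 95% intervals from limma on log2(value + 1). The intervals of Srebf1 (-0.92 to -0.38), Insig2 (-0.83 to -0.33) and Insig1 (0.31 to 0.82), in red, lie away from 0, and those of the other 6 genes, in grey, include it.

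Because the INSIG genes moved in opposite directions, their sum and their ratio were computed in each mouse, a choice made after the values were seen. The ratio of Insig1 to Insig2 reads was 2.53, 1.97 and 1.85 in L-RalyKO mice and 0.718, 1.32 and 0.883 in controls. The mean ratio was 2.12 ± 0.361 against 0.973 ± 0.309 (SD, n = 3 each), the geometric means differed by 2.23-fold, and the separate values of both genes fix that the groups do not overlap. Per kb of annotated exons, Insig1 made up 76.8%, 72.1% and 70.9% of both INSIG transcripts in L-RalyKO mice and 48.5%, 63.3% and 53.7% in controls. Insig1 was thus the larger part in all 3 L-RalyKO mice and in 2 of 3 controls by this length, and in 1 of 3 controls by the longest coding transcript. The sum of both genes was 100.9, 94.6 and 90.8 in L-RalyKO mice and 88.1, 88.7 and 80.8 in controls, higher by 1.11-fold in the geometric mean and without overlap (exact permutation p = 0.1). Divided instead by the longest coding transcript, the sum was 107.6, 102.2 and 98.4 against 101.2, 98.1 and 91.6, and the groups overlapped (1.06-fold in the geometric mean, exact permutation p = 0.2). With that length Insig1 made up 68.0% ± 3.52 against 49.0% ± 7.65 of the sum (SD, n = 3 each). Within each group, the order of the 3 mice by Insig1 was the reverse of their order by Insig2. However, L-RalyKO mice 2 and 3 were nearly equal in Insig2, and control mice 1 and 3 in Insig1 (113.2 and 114.8).

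**Figure D3:**
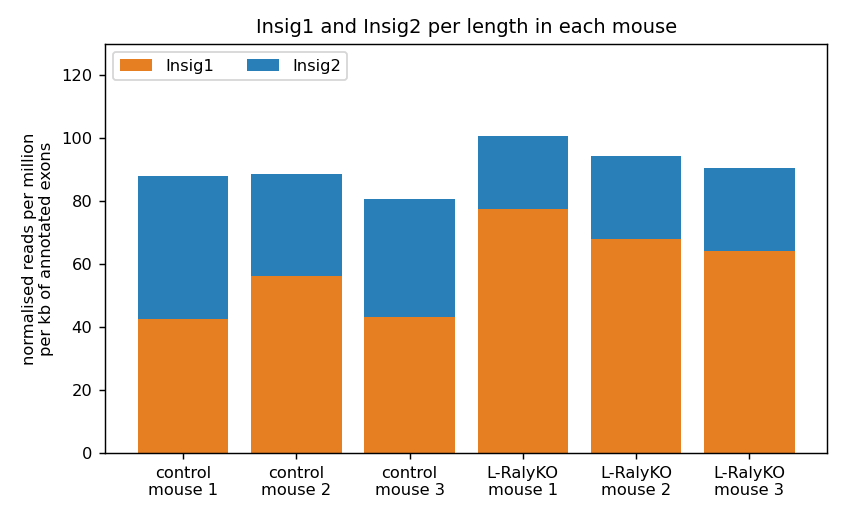
Insig1 (orange) and Insig2 (blue) stacked for each mouse, in normalised reads per kb of annotated exons. The total lies between 80.8 and 100.9 in the 6 mice, and the orange part is 70.9% to 76.8% of it in L-RalyKO mice and 48.5% to 63.3% in controls.

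Srebf2 (ENSMUSG00000022463.6, chr15:81977696-82035806, + strand) did not pass the test. Its values were 38.4, 36.8 and 39.7 in L-RalyKO mice and 35.8, 39.9 and 34.2 in controls, and the highest of the 6 was a control. The log2 fold change was 0.06 (SE 0.067, limma, adjusted p = 0.62; exact permutation p = 0.5). The 95% interval of -0.09 to 0.22 corresponds to 0.941 to 1.16 times the control level, and a fall below 0.941 times the control level lay outside it. The ratio of Srebf1 to Srebf2 reads, also computed after the values were seen, was lower in L-RalyKO liver without overlap, at 4.97, 6.64 and 4.19 in L-RalyKO mice and 9.01, 7.49 and 9.13 in controls. Mir33, the microRNA gene in an intron of Srebf2, was listed at 0 in every mouse, and these libraries were not made for small RNA.

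Scap (ENSMUSG00000032485.8, chr9:110235792-110287450, + strand), the escort, had values of 153.2, 141.7 and 134.8 in L-RalyKO mice and 134.9, 139.9 and 130.5 in controls. The groups overlapped, and the log2 fold change was 0.08 (95% interval -0.05 to 0.21, limma, adjusted p = 0.445). The ratio of Srebf1 to Scap reads, computed after the values were seen, did not overlap between groups. It was 1.24, 1.73 and 1.23 in L-RalyKO mice and 2.39, 2.14 and 2.39 in controls. An antisense gene, 5830462I19Rik, covers 18.9% of the annotated exons of Scap. The library kit is stranded, but whether strand was used in counting is not given in the sources used here.

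The site-1 protease gene Mbtps1 (ENSMUSG00000031835.8, chr8:122032056-122082661, - strand) had values of 72.9, 67.8 and 68.7 in L-RalyKO mice and 68.3, 69.9 and 69.5 in controls. Its log2 fold change of 0.01 had an interval of -0.10 to 0.12 (limma, adjusted p = 0.925). Site-2 protease, Mbtps2 (ENSMUSG00000046873.11, chrX:153973303-154036647, - strand), had the fewest reads of the 9 genes, 263 to 417 per mouse. Its values were 11.8, 11.4 and 10.9 against 11.1, 9.22 and 11.3, with a log2 fold change of 0.10 (interval -0.09 to 0.30, limma, adjusted p = 0.52). The Mbtps2 values are uncertain, since Yy2 lies inside the gene on the same strand, covers 28.4% of its exons and has values of its own of 0.626 to 1.34.

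The ligase gene Rnf5 (ENSMUSG00000015478.7, chr17:34738036-34740635, - strand), which the study used as an NFY target, was the steadiest of the 9. Its values were 45.3, 46.8 and 45.4 in L-RalyKO mice and 46.6, 47.0 and 46.6 in controls. The log2 fold change was -0.03 (interval -0.13 to 0.08, limma, adjusted p = 0.775). An antisense transcript, Gm20463, covers 24.7% of its exons. Rnf139 (ENSMUSG00000037075.6, chr15:58720784-58733945, + strand) had values of 40.0, 40.8 and 36.2 against 36.9, 38.9 and 37.0, a log2 fold change of 0.05 (interval -0.09 to 0.19, limma, adjusted p = 0.68). For each of the 6 genes that did not pass, the interval shows which differences the 3 mice per group leave possible, and none of them shows equality.

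Levels of different genes were compared per kb of annotated exons. In control liver Srebf1 was the highest at 55.3 ± 2.12 (SD, n = 3), followed by Insig1 at 47.4 ± 7.60 and Insig2 at 38.4 ± 6.49. Rnf5 (31.5), Scap (26.0), Mbtps1 (10.2), Rnf139 (8.64), Srebf2 (7.35) and Mbtps2 (1.04) followed in that order. The ranges of Srebf1 and Insig1 overlapped, as did those of Insig1 and Insig2, and the remaining neighbours did not overlap. In L-RalyKO liver Insig1 was first at 70.0 ± 6.80 and Srebf1 second at 35.6 ± 7.11, and Insig2 (25.4 ± 1.76) came after Rnf5 (30.9) and Scap (27.5). There Srebf1 overlapped with Rnf5 and Scap with Insig2. With the longest coding transcript as the length, control Insig2 (49.5) stood above Insig1 (47.4), and their ranges again overlapped. In every mouse of both groups Srebf1 was above Srebf2 per kb.

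Leaving out single mice kept the direction of the 3 called genes but not every call. Srebf1 lost its call without L-RalyKO mouse 1 (limma, adjusted p = 0.0649) and without control mouse 1 (0.063). Insig1 lost it without L-RalyKO mouse 1 (0.0748), L-RalyKO mouse 2 (0.0583) or control mouse 1 (0.0737). Insig2 lost it only without L-RalyKO mouse 1 (0.0735). The log2 fold changes over the 6 fits lay between -0.80 and -0.53 for Srebf1, 0.49 and 0.69 for Insig1, and -0.69 and -0.46 for Insig2. In all 10 other settings the 3 genes were called (highest adjusted p 0.0434, 0.0499 and 0.0467 for Srebf1, Insig1 and Insig2).

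**Figure D4:**
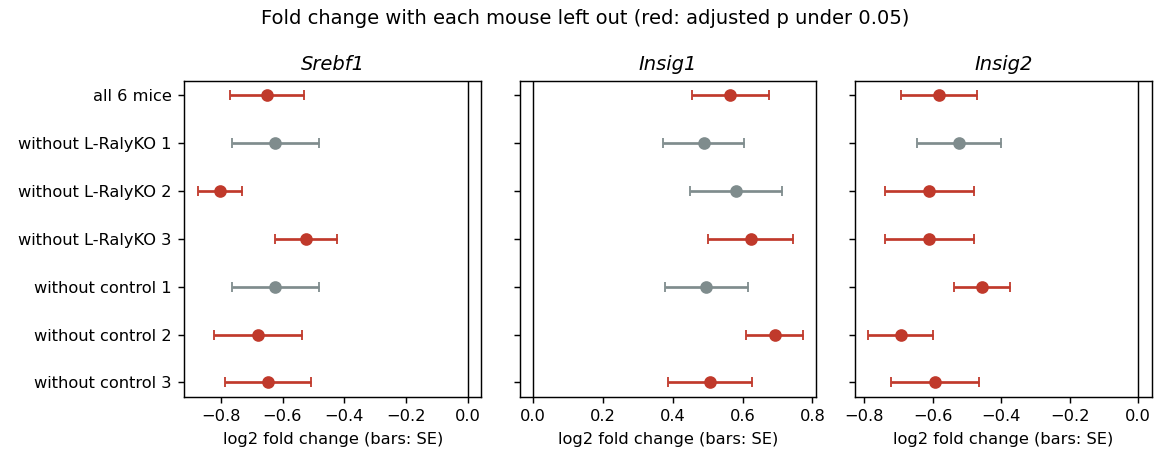
Log2 fold change (L-RalyKO minus control, bars are SE) of Srebf1, Insig1 and Insig2 with all 6 mice and with each mouse left out, with red for adjusted p under 0.05 in limma. All points stay on one side of 0, and without L-RalyKO mouse 1 none of the 3 genes is red.

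Genes whose profile over the 6 mice was most like that of Srebf1 were looked for among the 11579 other tested genes, by the root mean square difference of centred log2(value + 1). The closest were Kcnj8 (0.061), Vldlr (0.061), which encodes the very low density lipoprotein receptor, and Car14 (0.077), a carbonic anhydrase. Car14 had values of 27.34, 33.97 and 21.23 in L-RalyKO mice and 50.04, 43.55 and 46.71 in controls. Kcnj8 and Vldlr were low, with values of at most 4.001 and 3.785. For Srebf2 the closest were Tor1a (0.023), Cnot8 (0.026) and Rnf215 (0.027), which did not pass the test.

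Around the machinery, most genes of ER sterol sensing and transport did not pass the test. In a list of 20 genes of ER sterol sensing and protein degradation, which holds further ubiquitin ligases, only Trim25 was called, and it was lower (log2 fold change -0.23, limma, adjusted p = 0.0240), so the share called was below the 6.55% of all genes. The median of the list was 0.01, against 0.00 for all genes tested. Without L-RalyKO mouse 2, 4 of the 20 were called, 3 of them higher (limma), where 437 of all 11580 genes were called. That mouse stood apart in Hspa5, an ER chaperone gene, with a value of 497.6 against 920.2 and 892.7 in the other L-RalyKO mice and 594.0 to 657.1 in controls. Among 14 COPII genes, whose products carry the SCAP complex out of the ER, Sec16b was called higher (0.25, limma, adjusted p = 0.0414), in 8 of 16 alternatives also, and the median was 0.08. That is 7.14% of the list, close to the 6.55% of all genes. Of 6 tested genes for other substrates of the site proteases, such as Atf6, none was called with all 6 mice by limma, edgeR or voom, 1 had an unadjusted p under 0.05 in limma, and DESeq2 called 1. That gene, Creb3l2, had the largest change of its list (0.64, limma, adjusted p = 0.107), with values of 20.3, 10.6 and 17.1 against 8.17, 9.36 and 11.5. With each mouse left out its log2 fold change lay between 0.46 and 0.89, and limma called it without L-RalyKO mouse 2 (adjusted p = 0.0189).

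Among 18 genes for nuclear partners and turnover factors of SREBPs, 3 were called higher and none lower (limma, adjusted p under 0.05), or 16.7%, against 6.55% of all genes. Of the 18, 6 had a log2 fold change below 0. Lpin1, which encodes the phosphatidic acid phosphatase lipin 1, had values of 1344, 1002 and 1151 in L-RalyKO mice and 444.2, 314.4 and 654.6 in controls (log2 fold change 1.36, limma, adjusted p = 0.0120). Lpin1 is itself known as an SREBP target and, as a nuclear protein, as an inhibitor of SREBP activity. Hnf4a, a hepatocyte transcription factor, rose by 0.55 (limma, adjusted p = 0.0155), and Ppargc1b, an SREBP coactivator, by 0.57 (limma, adjusted p = 0.0204). With edgeR's quasi-likelihood test 2 of the 18 were called, and Lpin1 was not (adjusted p = 0.0913). Limma called 1 of the 18 without L-RalyKO mouse 1 or control mouse 1, where 332 and 369 of all 11580 genes were called. The NFY subunit genes had log2 fold changes of -0.10 (Nfya), 0.06 (Nfyb) and 0.01 (Nfyc), and their lowest adjusted p was 0.534 (limma).

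Of 12 genes for the liver X receptors and their targets, Abca1 (-0.37, limma, adjusted p = 0.0396) and Pltp (-0.52, 0.0443) were lower, 16.7% of the list against 3.19% of all genes called lower. Abca1 exports cholesterol from cells and Pltp transfers phospholipid between lipoproteins. Nr1h3, which encodes LXRalpha, an activator of Srebf1 transcription, had values of 76.4, 76.7 and 74.6 against 76.4, 73.7 and 70.7 (log2 fold change 0.04, limma, adjusted p = 0.642). With edgeR's quasi-likelihood test 1 of the 12 was called, and Pltp was not. Limma called 0 of the 12 without the intensity trend, among all genes with at least 1 read, and without L-RalyKO mouse 1, L-RalyKO mouse 3 or control mouse 1 (3 at unadjusted p under 0.05 in each).

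Of 17 tested lipogenic targets of SREBP1, 6 were lower and 2 higher (limma), with a median log2 fold change of -0.30. These are 47.1% of the list, where 3.19% of all genes were called lower and 3.36% higher. Acly, which makes cytosolic acetyl-CoA (-0.56, limma, adjusted p = 0.00365), Mid1ip1, which promotes polymerisation of acetyl-CoA carboxylase (-0.66, 0.00241), and the elongase Elovl6 (-0.62, 0.00527) fell, as did Acaca (-0.30, 0.0264), Fasn (-0.50, 0.0445) and Gpam (-0.40, 0.0474). The desaturases Fads2 (0.64, limma, adjusted p = 0.000537) and Fads1 (0.46, 0.00372) rose. With edgeR's quasi-likelihood test 4 were lower and 2 higher. Without L-RalyKO mouse 1 or 3, or control mouse 1 or 2, 5 of the 17 were called (3 lower and 2 higher, limma). In those fits 332 to 540 of all 11580 genes were called. Without control mouse 1 the median of the list was -0.17. Acly, Mid1ip1, Elovl6, Fads1 and Fads2 were called in all 16 alternatives. Acaca, Fasn and Gpam lost their calls without L-RalyKO mouse 1 or control mouse 1, among others, as did Trim25, Sec16b, Hnf4a, Ppargc1b, Abca1 and Pltp, with highest adjusted p values from 0.0617 (Hnf4a) to 0.137 (Pltp) when a mouse was left out (limma). The stearoyl-CoA desaturase gene Scd1 had values of 15776, 17244 and 11925 against 18582, 10629 and 13726, and these overlapped (0.09, limma, adjusted p = 0.858). Pnpla3 was too low to be tested, with values of 0.436, 0.667 and 0.474 against 1.70, 1.51 and 0.676.

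Of 24 sterol targets of SREBP2, none was called with all 6 mice by limma, edgeR's quasi-likelihood test or voom, 5 had an unadjusted p under 0.05 in limma (22.7% of all genes had), and DESeq2 called 2, 1 higher and 1 lower, of which the lower was Hmgcs1 (-0.39, adjusted p = 0.0435). The log2 fold change was above 0 in 19 and below 0 in 5, with a median of 0.12, where 51.2% of all genes were above 0. The median moved with single mice, to 0.05 without L-RalyKO mouse 1 and to 0.04 without control mouse 3 (16 of 24 above 0). It was 0.18 without L-RalyKO mouse 3 and 0.26 without control mouse 2 (11 at unadjusted p under 0.05). At unadjusted p under 0.05, 2 genes passed without L-RalyKO mouse 1, L-RalyKO mouse 2 or control mouse 1 (limma). Without the intensity trend 1 passed. In limma 1 gene was called higher without L-RalyKO mouse 3, 1 higher without control mouse 2 and 1 lower without control mouse 3. With all 6 mice the largest was that of Msmo1, a C-4 sterol demethylation enzyme (0.41, limma, adjusted p = 0.258), which lay between 0.18 and 0.62 when a mouse was left out. Hmgcs1, an early enzyme of the mevalonate pathway, had values of 87.6, 76.4 and 63.7 against 100.9, 118.5 and 78.7 (-0.38, limma, adjusted p = 0.187).

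**Figure D5:**
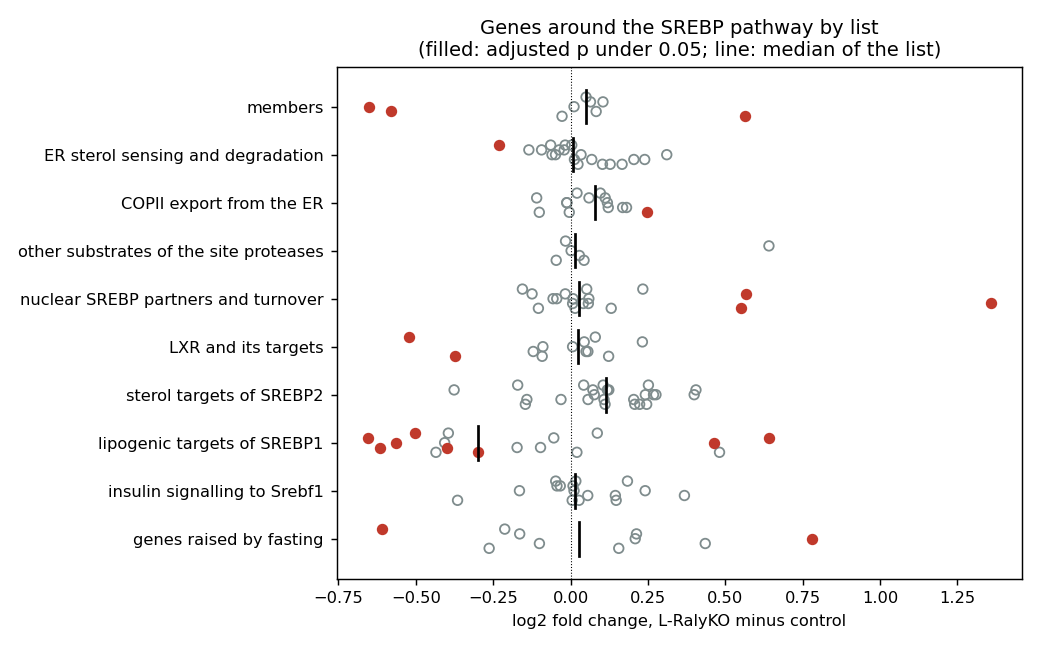
Log2 fold change (L-RalyKO minus control) of each tested gene by list, with filled red points for adjusted p under 0.05 in limma, open grey points for the rest and a vertical line at the median of each list. The median is -0.30 for the lipogenic targets and 0.12 for the sterol targets of SREBP2, and the row named members holds the 9 genes examined.

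Insulin is known to raise Srebf1 and lower Insig2, so insulin signalling and fasting genes were also examined. The study mentions fasting mice for its PCR of Srebp1c in liver. For the RNA-seq livers its methods give the chow diet but not whether the mice were fed or fasted when taken. With all 6 mice none of 16 genes of insulin signalling to Srebf1 was called by limma, edgeR's quasi-likelihood test, voom or DESeq2. Of the 16, 5 had an unadjusted p under 0.05 in limma, which 22.7% of all genes had. That count was 0 without control mouse 1, 1 without L-RalyKO mouse 2, and 2 without L-RalyKO mouse 1 or without the intensity trend. Neither Irs2 (log2 fold change 0.37, limma, adjusted p = 0.283) nor Irs1 (-0.37, adjusted p = 0.188), which encode insulin receptor substrates, passed the test. Irs2 values were 18.30, 19.03 and 17.71 against 9.51, 16.1 and 17.7, and its log2 fold change was 0.11 without control mouse 1. Without control mouse 3, 1 gene of the list was called, as lower (limma). Of 10 genes known to be raised by fasting, Pck1 was higher (0.78, limma, adjusted p = 0.00312) and G6pc lower (-0.61, 0.0125), and both belong to gluconeogenesis. These 2 are 20% of the list, against 6.55% of all genes. The median of the 10 was 0.03, and it lay between -0.05 (without L-RalyKO mouse 3 or control mouse 3) and 0.13 (without L-RalyKO mouse 2) when a mouse was left out and at 0.16 among the 9 genes with a mean value of 5 or more.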

How the data were processed

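The table holds 3 L-RalyKO and 3 control livers, fewer per group than the study gives for its RNA-seq. Per the methods, reads were aligned to mm9 with TopHat v2.0.2 and quantified as FPKM with Cufflinks v2.0.2 on Ensembl NCBI37 annotation. The deposited values are another unit, a normalised signal per gene of reads scaled by library size, and how the authors made them is not given in the sources used here. In each library 100% of values were whole multiples of 1 read (within 0.01), so reads were recovered for the count tests. A gene with 3 reads has a value of 0.0789 to 0.105. Intervals are at the 95% level.

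Each column names a virus and a number, which assigned it to a mouse. Groups were compared with limma 3.58.1 (R 4.3.3) with an intensity trend on log2(value + 1), which understates the change of low genes, for the 11580 genes averaging 1 or more over the 6 mice. All 9 genes passed that filter. P values were adjusted over all genes by the Benjamini-Hochberg method. Alternatives were edgeR 4.0.16 (quasi-likelihood), DESeq2 1.42.0 and limma voom on recovered reads, other scalings, filters and pseudocounts, a fit without trend, a replicate block, and each mouse left out. The labels number the samples without naming animals, and if samples shared an animal the p values would measure technical spread.

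Genes, lists and their naming were chosen with earlier results of these data known. Named genes are the 9, Raly, list members at adjusted p under 0.05 or otherwise the largest change of the list, the 3 nearest profiles to Srebf1 and Srebf2, and a few fixed targets, some of which are not reported here. Hspa5, Irs1, the NFY subunits and the adipocyte markers were named after their values were seen. Gene positions and lengths come from GENCODE vM1 on NCBIM37, and sequences from RefSeq.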

Additional observations from a re-analysis of the deposited data

How the results depend on the processing

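The number of genes called fell from 758 to 484 when all 17216 genes with at least 1 read were tested, and lay between 332 and 813 when each mouse was left out. Of the 9 genes, 3 were called in all 10 settings that kept every mouse, and 0 to 3 when a mouse was left out. The 0 came without L-RalyKO mouse 1, where 3 of the 9 still had an unadjusted p under 0.05 (limma). In the pathway lists 17 genes were called, against 11 with at least 1 read as the filter, 10 without the intensity trend, and 8 to 20 when each mouse was left out. Same-numbered mice showed no sign of deviating together (correlations of 0.066, -0.024 and 0.020, against -0.088 to 0.060 for mice with different numbers). With so few mice these values cannot settle whether the numbers pair the mice. With the replicate block 704 genes were called, 3 of the 9 genes among them, and 19 in the pathway lists. Total count scaling moved the median of all genes to -0.03 and called 324 higher and 469 lower, against 389 and 369. Signs turned for Mbtps1 (-0.023 with total count scaling, and -0.020 to 0.032 with each mouse left out, lowest without L-RalyKO mouse 1) and Scd1 (-0.11 to 0.29, below 0 without L-RalyKO mouse 2 or control mouse 2), neither of which passed the test in any of these fits, and the cause was not tested. Counting error at a gene's lowest count was 1.26% to 3.004% for 8 of the 9 genes, and 6.17% for Mbtps2 (263 reads).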
